A study of Rattus norvegicus with 6 samples.

Results

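Fos, Jun, Egr1 and Myc are immediate-early transcription factors, and their mRNA was followed here in vascular smooth muscle cells (VSMCs) after knockdown of SLC2A10, the gene of glucose transporter 10. The 4 genes were chosen by Ensembl ID, with earlier results of these data known and no measured value in the rule, out of 13304 genes and unnamed loci in 6 libraries. Events of 3 of the 4 were listed, for Fos (ENSRNOG00000008015), Egr1 (ENSRNOG00000019422) and Myc (ENSRNOG00000004500), and all 3 passed the filter on low values that left 10558 genes for testing. Jun (ENSRNOG00000026293) had no listed event in any of the 6 libraries.

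The libraries formed 3 groups of 2. By the results text of the paper, control virus was given to the controls. By the same text, the other groups received short hairpin RNA virus with one of the interference sequences against SLC2A10. They are called sequence 2 and sequence 3 from the numbers in the sample titles. The sample labels and the methods give Sprague-Dawley rats, whereas the series design text names mice, and the labels give no age. The cells were grown out of aorta and used after a few passages, and the labels give medium with 20% fetal bovine serum, so all groups were in serum as far as the labels tell. The titles speak of siRNA, the genotype labels give the controls as wild type and the others as SLC2A10-/-, and the extraction text names frozen aorta, so the labels and the paper differ on the material. Nothing states whether the replicates were separate cultures, and the p-values below cover the spread from library to library alone, which may be technical. Fewer transcripts per cell and fewer cells that express a gene cannot be told apart in such bulk RNA.

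Levels are FPKM, in which fragments are divided by the length of the transcript and by the size of the library. The level of a gene was the larger of its summed transcript starts and its summed transcript ends. The libraries held 12837 to 13826 starts, with the fewest in replicate 2 of sequence 3. Across the tested genes the control libraries correlated at 0.968 with each other and at 0.902 to 0.922 with the knockdown libraries, and the 2 libraries of sequence 3 correlated at 0.955 (Pearson's r of log2(FPKM + 1)). The sequencing depth is unknown. The IDs of other genes could not be paired with names, so SLC2A10 itself, the markers of smooth muscle and of other cells, and the other immediate-early genes were not analysed here. The direction of each comparison therefore rests on the labels here. The paper states that qPCR was used to test the interference, but it prints no values for it.

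Immediate-early genes are transcribed within minutes of a stimulus such as serum, a growth factor or mechanical stress, from factors already present in the cell and without new protein synthesis. Their mRNAs are short-lived. Fos and Jun proteins pair through leucine zippers to form AP-1, Egr1 binds GC-rich sites through zinc fingers, and Myc pairs with Max at E-boxes and drives growth and ribosome genes. In VSMCs these factors are known for their part in the response to injury and growth factors and in the exit from the contractile state. Serum response factor, bound to CArG boxes, switches on Fos and Egr1 after serum and also drives the contractile genes.

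Of the 4 genes, 1 had an entry in the RefSeq promoter table, Egr1. The 250 bases before its start are shown because they hold 2 CArG boxes, which are in capitals (GRCr8, chr18:26736828-26737077, plus strand, 5′ to 3′).
Egr1 promoter: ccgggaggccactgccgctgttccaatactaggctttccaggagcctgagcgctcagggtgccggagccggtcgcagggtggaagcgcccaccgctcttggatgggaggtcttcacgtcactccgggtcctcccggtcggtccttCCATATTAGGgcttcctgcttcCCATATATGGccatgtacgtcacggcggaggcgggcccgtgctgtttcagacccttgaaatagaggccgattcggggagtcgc
The 2 CArG boxes lie at -105 to -96 and at -83 to -74 from the start. Bases further upstream were not searched, so other CArG boxes of Egr1 may lie there. At least 1 CArG box was found in 1.497% of 33469 promoter windows of the same length, and 2 or more in 0.0209%. The core of the cAMP response element, TGACG, occurred 2 times in the Egr1 window and at least once in 18.2% of all windows. The full element TGACGTCA, which contains that core on either strand, had no match, and 1.59% of all windows held it. The other motifs searched on both strands also had no match there, namely TATAAA (held by 12.9% of all windows), the AP-1 site TGANTCA (6.34%), the E-box CACGTG (5.59%), the EGR site GCGNGGGCG (4.29%) and GGGCGG (30.5%). A match describes letters and does not show a bound factor.

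The first question was whether these factors differ between the knockdown libraries and the controls. Fos, Egr1 and Myc were lower on average in the 4 knockdown libraries, but 0 of the 3 passed an adjusted p of 0.05 in limma. At an unadjusted p under 0.05, 1 of the 3 passed, Fos. Among all genes tested, 5.11% were called at the adjusted and 21.9% at the unadjusted limit, so 1 of 3 is little above that background. The median log2 difference of the 3 genes was -0.20, beside 0.08 over all genes tested.

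**Figure D1:**
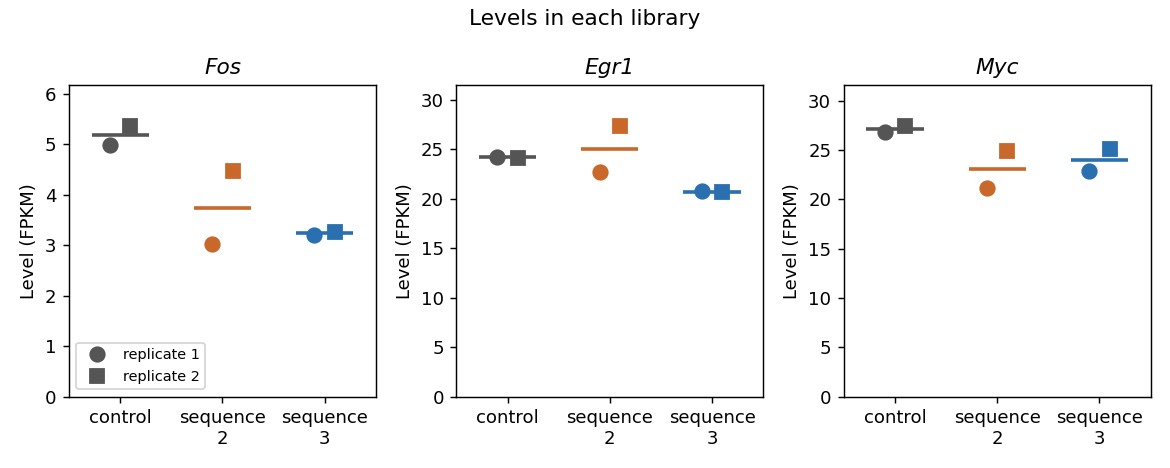
Level of Fos, Egr1 and Myc (FPKM, vertical axes from 0) in each of the 6 libraries. Circles are replicate 1, squares are replicate 2 and horizontal lines are the group means. Fos and Myc are highest in the 2 controls, while Egr1 is highest in replicate 2 of sequence 2, at 27.4.

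Fos encodes an AP-1 subunit that needs a partner such as Jun to bind DNA. Its locus, XLOC_038070, lay on chromosome 6 from 109300433 to 109303299 on the plus strand, in a genome build for which no source names a version. That span of 2867 bp equals the length of Fos in RefSeq, which also places it on chromosome 6. Fos was the lowest of the 3 genes per length.

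The Fos level was 4.98 and 5.37 in the controls, 3.03 and 4.46 with sequence 2, and 3.21 and 3.27 with sequence 3. All 4 knockdown libraries were below both controls, and replicate 2 of sequence 2 came closest to them. The group means were 5.18 ± 0.277 (SD, n = 2) in the controls, 3.75 ± 1.012 (SD, n = 2) for sequence 2 and 3.24 ± 0.0416 (SD, n = 2) for sequence 3. The mean of the knockdown libraries was 32.5% below that of the controls, as a ratio of FPKM.

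On the log2(FPKM + 1) scale, which understates the change of low genes, the difference of Fos between knockdown and control was -0.47 (standard error 0.163, 95% interval -0.87 to -0.06). The unadjusted p was 0.0300 and the adjusted p was 0.176 from limma. Of all genes tested, 7.62% had a difference at or below it. The value differed with the libraries: it was -0.36 without replicate 1 of sequence 2, with an unadjusted p of 0.0617, and -0.58 without replicate 2, with an unadjusted p of 0.0130.

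The events of Fos bear on that order of the libraries. In 5 libraries Fos had 1 start, in an exon of 293 bp, and 1 end, in an exon of 936 bp, with equal FPKM. Replicate 1 of the controls also listed a second start, in an exon of 464 bp, with 0.628 FPKM. It raised the sum of starts there to 4.98, while the sum of ends was 4.35. By ends alone that control lies below replicate 2 of sequence 2, at 4.46, and the groups overlap. The difference between knockdown and control was then -0.39, with an unadjusted p of 0.0697 and an adjusted p of 0.267 from limma.

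Jun encodes another AP-1 subunit, which also pairs with itself. It had no listed start or end in the tables, so it has no level here and was not tested. The 0 that the level rule gives an unlisted gene is not read as absence of the mRNA. Jun is known as a gene without introns. In every library 0 exons were listed as both the start and the end of a locus, which is what a transcript of 1 exon would be. Whether this left Jun unlisted was not tested.

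Egr1 encodes a zinc finger factor whose own promoter carries the CArG boxes printed above. Its locus, XLOC_020176, lay on chromosome 18 from 27657628 to 27661429 on the plus strand and spanned 3802 bp, against 3800 bp for Egr1 in RefSeq. It had 1 start, in an exon of 498 bp, and 1 end, in an exon of 2632 bp, in all 6 libraries, with equal FPKM.

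The Egr1 level was 24.25 and 24.16 in the controls, 22.75 and 27.4 with sequence 2, and 20.8 and 20.7 with sequence 3. The libraries of sequence 2 lay on either side of the controls, and those of sequence 3 were the lowest of all. The means were 24.2 ± 0.0582 (SD, n = 2), 25.1 ± 3.29 (SD, n = 2) and 20.7 ± 0.0749 (SD, n = 2). The difference between knockdown and control was -0.09 (standard error 0.110, 95% interval -0.36 to 0.19, adjusted p = 0.706 from limma). This interval holds differences in either direction, and the difference was -0.02 without replicate 1 of sequence 2 and -0.15 without replicate 2.

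Myc encodes the factor that pairs with Max. Its locus, XLOC_040565, lay on chromosome 7 from 102586313 to 102591240 on the plus strand and spanned 4928 bp, against 4927 bp for Myc in RefSeq. The Myc level was 26.8 and 27.5 in the controls, 21.2 and 24.95 with sequence 2, and 22.9 and 25.1 with sequence 3. All 4 knockdown libraries were below both controls, as with Fos. The means were 27.1 ± 0.484 (SD, n = 2), 23.1 ± 2.66 (SD, n = 2) and 24.0 ± 1.53 (SD, n = 2), and the mean of the knockdown libraries was 13.3% below that of the controls.

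The log2 difference of Myc between knockdown and control was -0.20 (standard error 0.110, 95% interval -0.47 to 0.07, adjusted p = 0.350 from limma). A separation such as that of Fos and Myc was not rare. All 4 knockdown libraries were below both controls in 11.2% of the genes tested, and in 2 of these 3.

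**Figure D2:**
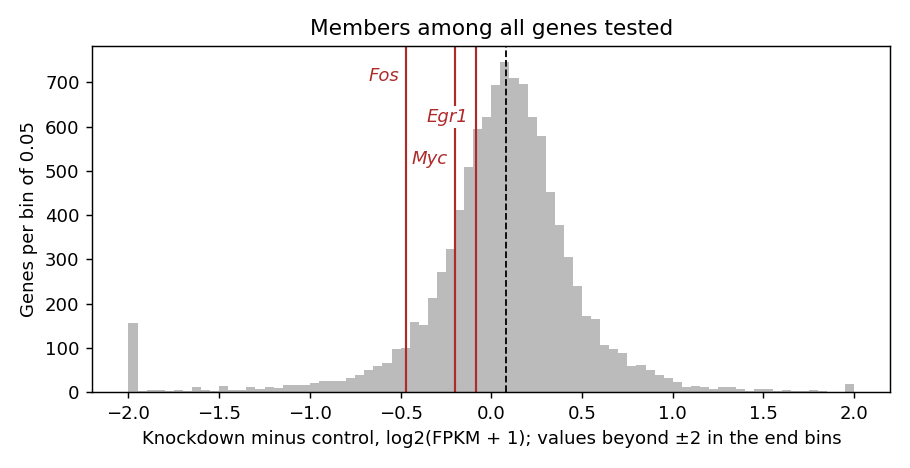
Number of genes (vertical axis, bins of 0.05) by their difference between knockdown and control in log2(FPKM + 1), with values beyond 2 in either direction placed in the end bins. Red lines mark Fos at -0.47, Myc at -0.20 and Egr1 at -0.09, and the dashed line marks the median of all 10558 genes at 0.08.

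The next question was whether the 2 interference sequences gave the same differences. These comparisons share the controls, so their values are given side by side and are not independent. With sequence 2 the log2 difference from control was -0.40 for Fos (95% interval -0.86 to 0.07), 0.04 for Egr1 (95% interval -0.27 to 0.36) and -0.23 for Myc (95% interval -0.54 to 0.08). With sequence 3 it was -0.54 for Fos (95% interval -1.009 to -0.07), -0.21 for Egr1 (95% interval -0.53 to 0.10) and -0.17 for Myc (95% interval -0.49 to 0.14). Fos was lower on average with both sequences and Myc by a smaller amount, though neither was called, while the small difference of Egr1 with sequence 2 was positive with all libraries and -0.09 without replicate 2 of sequence 2.

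Single libraries moved these values. With sequence 2, the difference of Fos was -0.18 without replicate 1 of sequence 2 and -0.61 without replicate 2, that of Myc was -0.12 and -0.34, and that of Egr1 was 0.17 and -0.09. With sequence 3, the difference of Myc was -0.11 without replicate 1 of sequence 3, -0.23 without replicate 2 and -0.26 after quantile normalization.

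With sequence 2, 0 of the 3 passed the adjusted and 0 the unadjusted limit in limma, against 3.55% and 16.2% of all genes tested. Without replicate 2 of sequence 2 the log2 difference of Fos was -0.61, and no share of all genes was computed for that fit. With sequence 3, 0 passed the adjusted limit and 1 the unadjusted limit, against 4.21% and 22.4% of all genes. That gene was Fos, with an adjusted p of 0.176 from limma. Both libraries of sequence 2 were below both controls for 2 of the 3 genes, Fos and Myc, as for 19.1% of all genes. Both libraries of sequence 3 were below both controls for all 3 tested genes, as for 16.1% of all genes. The unadjusted pass of Fos with sequence 3 was lost by ends alone, where the log2 difference was -0.46, and without either control or either library of sequence 3. By ends alone, the separation of Fos from the controls is lost for sequence 2 and not for sequence 3.

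The direct comparison of sequence 3 with sequence 2 gave log2 differences of -0.15 for Fos (95% interval -0.61 to 0.32), -0.26 for Egr1 (95% interval -0.57 to 0.06) and 0.06 for Myc (95% interval -0.26 to 0.37). None of the 3 passed the adjusted limit (0 of 3, against 0.0663% of all genes) or the unadjusted limit (0 of 3, against 5.44%) in limma. The intervals leave room for a difference of Egr1 down to -0.57, so these data do not show that the sequences act alike on it. The sign of the Myc difference turned to -0.03 after quantile normalization and was also negative without replicate 1 of sequence 2 or replicate 2 of sequence 3, and that of Fos turned to 0.07 without replicate 2 of sequence 2. The Egr1 difference was -0.39 without replicate 1 of sequence 2 and -0.13 without replicate 2. After quantile normalization Egr1 passed the unadjusted limit, but the share of all genes passing under that normalization was not computed.

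**Figure D3:**
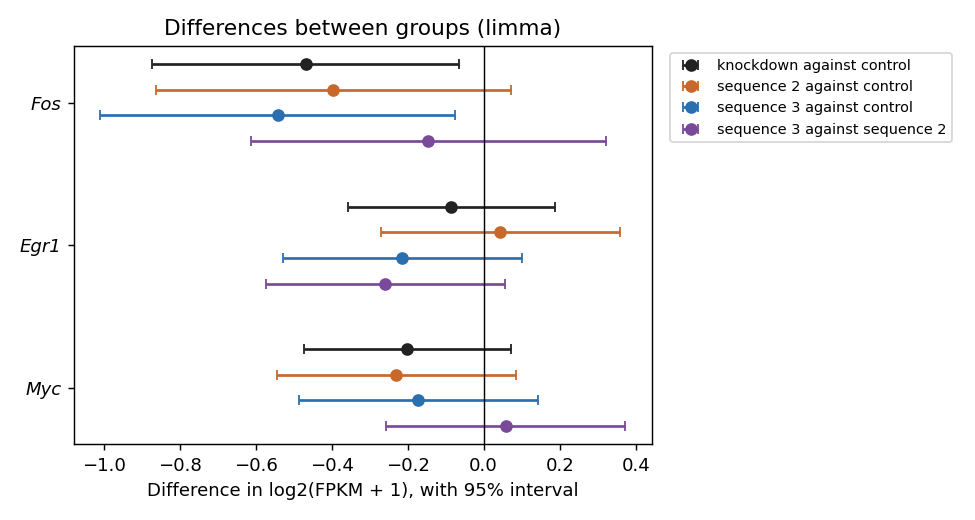
Difference between groups in log2(FPKM + 1) on the horizontal axis for Fos, Egr1 and Myc, with the 95% interval from limma as bars. The intervals of Fos for knockdown and for sequence 3 against control lie below 0, and all the others cross 0.

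The spread between replicates differed among the groups. In the controls the replicates differed by 0.09 for Fos, 0.0047 for Egr1 and 0.04 for Myc in log2(FPKM + 1), against a median of 0.18 over all genes tested. With sequence 3 they differed by 0.02, 0.0070 and 0.13, against a median of 0.25. With sequence 2 they differed by 0.44, 0.26 and 0.23, against a median of 0.16. All 3 genes were lower in replicate 1 of sequence 2 than in replicate 2, whereas the median signed difference of all genes was -0.03. The gap in Fos was wider than that of 85.7% of genes and nearly as large as its difference between knockdown and control. Replicate 1 of sequence 2 listed 13305 starts and replicate 2 listed 13826, and the part of this in the result was not tested.

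Among all tested genes in a library, 24.1% to 38.8% had a lower level than Fos, 73.8% to 81.8% a lower level than Egr1 and 76.0% to 81.4% a lower level than Myc. Fos was therefore the lowest in every library, at 0.366 to 0.663 times the library median, while Egr1 and Myc were at 2.41 to 3.39 times the median. The 2 higher genes had overlapping ranges, 20.7 to 27.4 FPKM for Egr1 and 21.2 to 27.5 FPKM for Myc. Their order differed among the libraries. The ratio of Myc to Egr1 was 1.105 and 1.137 in the controls, 0.931 and 0.910 with sequence 2, and 1.10 and 1.21 with sequence 3. Egr1 exceeded Myc in both libraries of sequence 2 and in none of the other 4. No test was made of this ratio, which was described after the values were seen. How many other pairs of genes split the libraries in this way was not counted, so no effect of the sequence is read from it.

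Myc alone had splicing events listed. Its last exon, of 1007 bp, started at 102590234, and a segment of 505 bp from 102589514 to 102590018 lay before it. In all 6 libraries transcripts joined past this segment, with 17.8 to 24.95 FPKM. In 3 of the 6 a further form was listed. Replicate 1 of the controls listed the segment as an included exon, with 7.31 FPKM or 27.3% of its Myc level. Replicate 2 of the controls and replicate 2 of sequence 3 instead listed a longer last exon of 1727 bp that begins with the segment, with 3.18 FPKM (11.6%) and 7.27 FPKM (29.0%). In the remaining 3 libraries all of the listed Myc level joined past the segment.

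**Figure D4:**
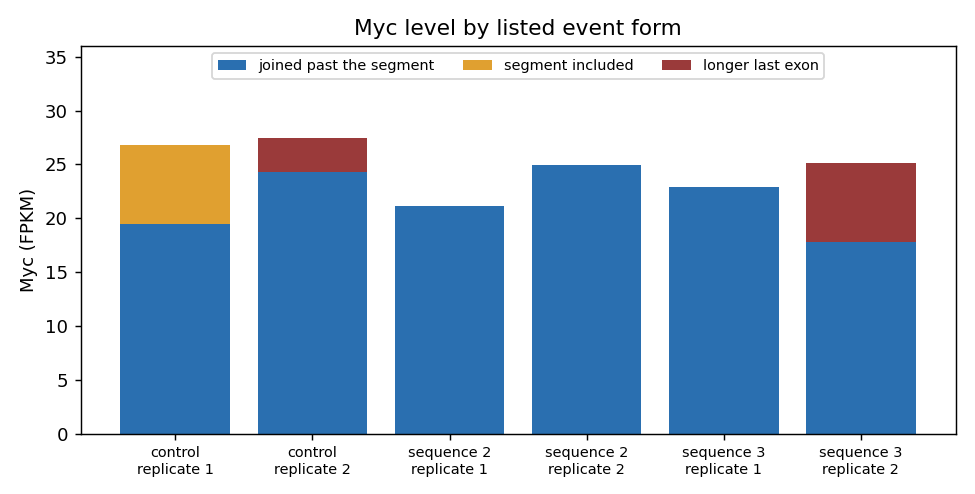
Myc level (FPKM, vertical axis) in each library, divided into the form that joins past the 505 bp segment, the form that includes it and the form with the longer last exon. The form that includes the segment appears in replicate 1 of the controls alone. The form with the longer last exon appears in replicate 2 of the controls and in replicate 2 of sequence 3. The bars sum to the Myc level.

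Both controls listed a further form, of a different kind each. Of the 4 knockdown libraries, 1 did, of sequence 3, and 0 of the 2 libraries of sequence 2 did. The form that joins past the segment was at 19.5 and 24.3 FPKM in the controls and at 17.8 to 24.95 FPKM in the knockdown libraries, so the groups overlapped in it. No test was made of single forms, and an unlisted form can be a failed estimate.

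The genes whose pattern over the 6 libraries was most like that of each member were found by Pearson's r of log2(FPKM + 1) among 9854 genes with an Ensembl ID. Their names could not be paired. ENSRNOG00000027596 was most like Fos (r = 0.988), at 2.22 to 3.78 FPKM, and was highest in the 2 controls. ENSRNOG00000006636 was most like Egr1 (r = 0.980), at 11.0 to 15.7 FPKM, with its highest level in replicate 2 of sequence 2. ENSRNOG00000017340 was most like Myc (r = 0.984), at 7.24 to 16.3 FPKM, and was again highest in the controls. Of the 9854 genes, r was at least 0.9 for 56 with Fos, 37 with Egr1 and 48 with Myc. No chance level was computed for these counts or for the highest r. Picking the closest of 9854 genes over only 6 libraries yields a high r and similar highest libraries by itself. No shared regulation is therefore read from these genes. The members themselves correlated at 0.871 for Fos with Myc, 0.691 for Fos with Egr1 and 0.364 for Egr1 with Myc over the same 6 libraries, which share their groups.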

How the data were processed

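RNA-seq of 6 libraries was analysed, 2 each for control, sequence 2 and sequence 3. For each library the authors deposited FPKM values of the transcript starts, transcript ends and splicing events. The processing notes of the submitters list HISAT2 2.0.1, HTSeq 0.6.1, SAMtools 0.1.18, StringTie 1.0.4, Trimmomatic 0.30 and bcl2fastq 2.17.1.14, without roles. Build, annotation and event caller: not given in the sources used here. No counts were given, so no counting interval can be stated.

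Repeated event IDs (1281 to 1634 per library) were dropped, and events were summed per Ensembl ID, or per locus without one. Unlisted genes were set to 0, which can be a failed estimate. The design had assumed values per gene. Genes that reached 1 FPKM in 2 or more libraries entered limma 3.58.1 on the log2(FPKM + 1) scale (R 4.3.3, mean-variance trend, 1 mean per group, Benjamini-Hochberg adjustment over 10558 genes). pandas 2.3.3 in Python 3.11.15 was used to read the tables. The model was run on simulated data with independent noise and added changes larger than any of the member differences reported here. That run does not show how often changes as small as those of the members would be called.

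The members, lists and tests were chosen with earlier results of these data known. The 4 members were always named, and 1 gene of most similar pattern for each of the 3 with a level. The symbols of the members came with their IDs in the definition of the group. None of the 12251 Ensembl IDs (0) could be paired with a symbol of the reference table, so the planned lists of related genes and markers were not run. Alternatives covered pseudocount, filter, scaling, variance model, level, replicate block and single libraries left out.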

Additional observations from a re-analysis of the deposited data

How the results depend on the processing

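No member passed the adjusted limit of limma in any of the 4 comparisons or under any of the 19 settings run, so the counts of members called stayed at 0. In knockdown against control the log2 difference kept its sign under all 17 alternatives that apply to it, from -0.58 to -0.36 for Fos, -0.15 to -0.02 for Egr1 and -0.26 to -0.14 for Myc. Fos had an unadjusted p under 0.05 in 11 of these 17. It did not with summed ends, nor without either control or without replicate 1 of sequence 2, replicate 1 of sequence 3 or replicate 2 of sequence 3, which leave fewer libraries. The adjusted p of Fos lay between 0.154 and 0.476.

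Signs reversed for 5 of the 210 values, all with an interval that crossed 0. Leaving out 1 library gave -0.0855 to 0.17 for Egr1 with sequence 2, negative without replicate 2 of sequence 2. In sequence 3 against sequence 2 it gave -0.37 to 0.0728 for Fos and -0.0546 to 0.17 for Myc, negative for Myc without replicate 1 of sequence 2 or replicate 2 of sequence 3, and -0.0273 for Myc after quantile normalization. A group left with 1 library was assumed to vary like the others. The replicate numbers were not taken as pairs, since the deviations of same-numbered libraries correlated at only -0.0707, 0.181 and -0.0861. With the replicate block the knockdown difference of Fos was -0.47 with an adjusted p of 0.210 from limma, and 0 members were called. No limit from depth can be stated, because the depth is unknown.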
